A study of Homo sapiens with 4 samples.

Results

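The genes described here encode the proteins of the spliceosome's small nuclear ribonucleoproteins (snRNPs), the SR proteins and the hnRNP proteins. They are 51 of the 58735 genes in the tables, taken from a list of gene names and found by their Ensembl identifiers in GENCODE, a human gene annotation. By role they are 7 genes of the Sm core, 3 of the U1 snRNP, 8 of the U2 snRNP, 2 of U2AF, 7 of the LSm ring, 2 of U5 and the Prp19 complex, 10 SR proteins and 12 hnRNP proteins. The rule that chose them uses gene names and no expression value, though it was written with earlier results of these data known. Each of the 51 was measured at a mean of at least 1 FPKM (FPKM counts fragments per kilobase of exon relative to the size of the library).

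RNA was sequenced from MOLM13, a human acute myeloid leukaemia cell line that carries the MLL::AF9 fusion. The cells were treated for 12 h with the vehicle DMSO, with SD70, with MI-503, or with SD70 and MI-503 in combination, and each of these 4 groups was 1 library. SD70 is known as a compound that acts against the histone demethylase KDM4C. MI-503 keeps menin from binding MLL proteins, an interaction on which the fusion relies. The series concerns the joint action of these agents. The sources used here give neither their doses nor the number of cultures. All groups share the same line, so no group lacks the fusion.

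Introns are removed by snRNPs, each built of a small nuclear RNA and its proteins. U1 marks the start of the intron, U2AF and U2 mark its end and branch point, and U4, U5 and U6 then join to form the catalytic centre. The Sm proteins form a ring around most of these RNAs and LSm proteins form the ring of U6. SR proteins bind exons and mostly favour their inclusion, while hnRNP proteins coat the nascent transcript and often oppose it. The genes are expressed in all nucleated cells, and those for SRSF2, SF3B1 and U2AF1 are recurrently mutated in myeloid malignancies.

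The libraries held 14695753 to 15937390 reads, recovered from the deposited FPKM, and 22062 to 24299 genes above 0. Of 10 myeloid leukaemia markers 9 had a mean of at least 1 FPKM, with KIT under it, and the list's summed level was 2719 to 3781 FPKM. None of the 4 T cell, 4 B cell and 4 erythroid markers reached 1 FPKM (0 of 4 in each list), with sums of at most 1.82 FPKM. KRT18 was the 1 of 4 epithelial markers above 1 FPKM (list sums of 1.04 to 2.72 FPKM, EPCAM and CDH1 at 0 in all libraries), and PECAM1 the 1 of 4 fibroblast and endothelial markers. PECAM1, which myeloid cells also express, stood at 11.8 FPKM in DMSO, 27.4 in SD70, 16.4 in MI-503 and 26.1 with the pair, while COL1A1, COL1A2 and VWF were at most 0.25 FPKM in any library. Mitochondrial ribosomal RNA took 1.5% and 1.43% of reads in the libraries with SD70 and 0.85% and 0.93% in those without it. PECAM1 and this share moved with SD70, as did the genes below, and their part in the results was not tested.

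With SD70 the spliceosome genes were lower as a group. All 51 stood below their DMSO level, by a median log2 fold of -0.76, against -0.07 over the 12296 genes whose mean reached 1 FPKM, of which 55.2% were below 0. A log2 fold here is taken on FPKM + 1. At least 2-fold lower were 15 of the 51, where 6.37% of all genes were, and at least 1.5-fold lower were 31, against 18.8% of all genes. None of the 51 was 1.5-fold higher (0 of 51), where 14.6% of all genes were. With the libraries scaled to the same FPKM or read total in place of the deposited scaling, 47 stood below DMSO (all but SF3A2, SF3B1, LSM2 and SRSF11) and 7 were 2-fold lower, against 4.72% and 4.62% of all genes. The genes are strongly expressed, with a median of 42.8 FPKM, so they were also read against strong genes: among those whose mean reached 20 FPKM, 13 of 41 listed genes were 2-fold lower, against 12.3% of 2160 genes, whose median log2 fold was -0.29. The summed level of the 51 was 3692 FPKM in DMSO, 2267 in SD70, 3373 in MI-503 and 2435 in the combination, or 1.17%, 0.772%, 1.05% and 0.80% of each library's FPKM. Both libraries with SD70 were the low ones. In cultured cells measured in bulk, fewer cells of a kind and less of an RNA per cell cannot be told apart.

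No group had a replicate, so these folds compare libraries and carry no replicate error. Counting intervals (95%, exact Clopper-Pearson, on the ratio of FPKM) are given beside ratios. They cover counting error only, and reads after PCR without molecular identifiers are not independent molecules. The interval of SD70 against DMSO lay wholly below 1 for 48 of the 51, as it did for 40.8% of all genes. A secondary fit with limma used all 4 libraries with a term for each agent, so that SD70 was set as 2 libraries with the agent against 2 without it. By it 33 of the 51 fell with SD70 and 0 rose (adjusted p of at most 0.05 over all genes), against 14.7% of all genes falling and 7.86% rising; 39 of the 51 had an unadjusted p under 0.05, as 40.7% of all genes did. Among strong genes 27 of 41 fell, where 31.2% of all 2160 did. This fit has 1 residual degree of freedom, the departure from additivity, and its calls depend on the model: without the mean-variance trend, or without the filter on low genes, 0 of the 51 and 0 of all genes were called. The words fell and rose are kept for genes past this fit as first specified.

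**Figure D1:**
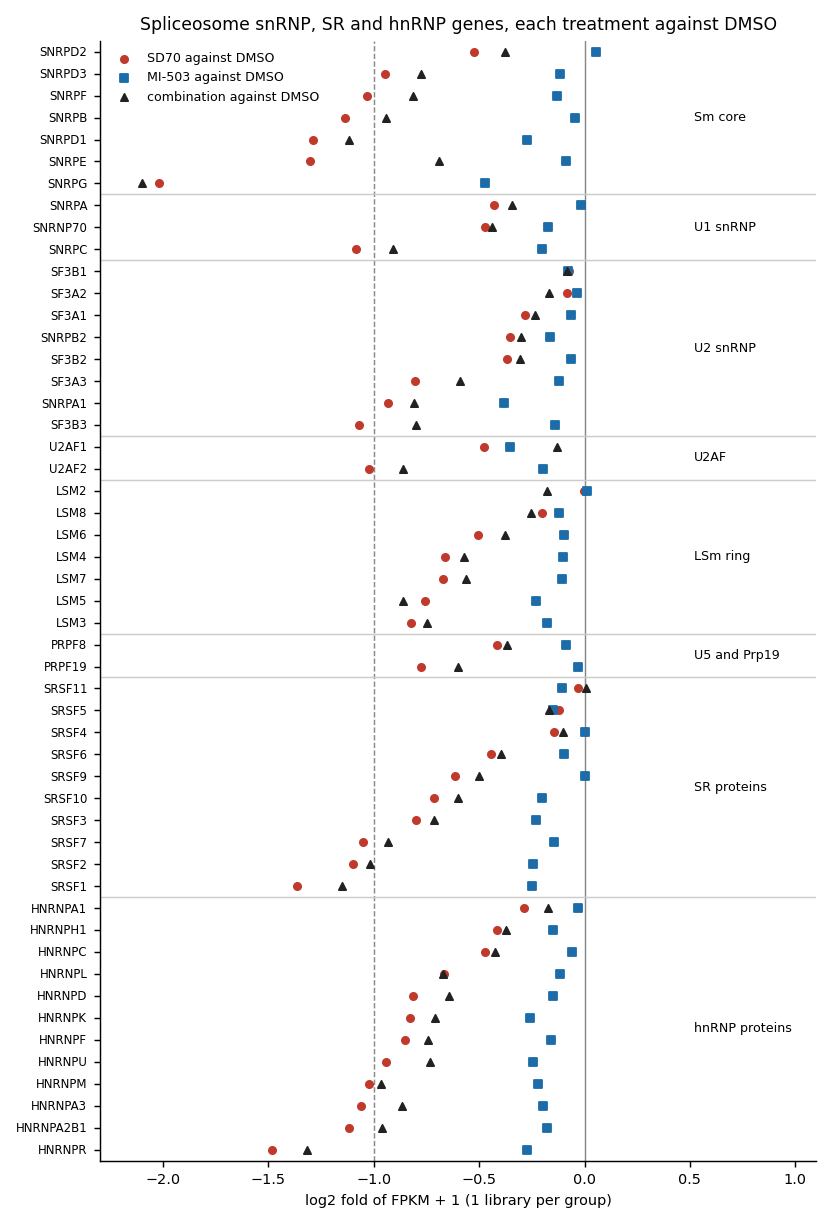
Log2 fold of FPKM + 1 against DMSO for each of the 51 genes, grouped by role and sorted by the SD70 fold within each role; circles are SD70, squares MI-503 and triangles the combination, each from 1 library. The SD70 circles run from -2.02 (SNRPG) to 0.00 (LSM2) and the MI-503 squares from -0.47 to 0.06, and the dashed line marks 2-fold lower.

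The Sm core was the lowest role, with a median log2 fold of -1.14 and 5 of its 7 genes at least 2-fold lower in SD70, and all 7 fell. These proteins (SmB, SmD1, SmD2, SmD3, SmE, SmF and SmG) close into the ring on which the U1, U2, U4 and U5 particles are assembled. SNRPG, for SmG (ENSG00000143977, chromosome 2, 70281362 to 70293771, minus strand), had 38.2 FPKM in DMSO, 8.68 in SD70, 27.2 in MI-503 and 8.14 in the combination; sets of 4 FPKM values below keep this order. The libraries with SD70 were far below the other pair. Its ratio of SD70 to DMSO was 0.227 (0.197 to 0.262), the lowest of the 51, and its change in the fit was -1.82 ± 0.15 (SE, limma adjusted p = 0.0221).

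SNRPE, for SmE (chromosome 1, 203861603 to 203870550), stood at 42.0, 16.4, 39.4 and 25.7 FPKM in the 4 libraries. The combination lay between SD70 and the others, and its ratio to SD70, 1.56 (1.37 to 1.79), was the only one of the 51 whose log2 fold reached 1.5-fold. With the reads of annotated copies added that log2 fold was 0.45, short of 1.5-fold, and that of U2AF1 was 0.78. Without copies the plain FPKM ratio of U2AF1 was also 1.56, with a log2 fold of 0.34 on FPKM + 1. The ratio of SD70 to DMSO was 0.391 (0.346 to 0.441) and the fit gave -0.95 ± 0.19 (SE, limma adjusted p = 0.031). SNRPD1, for SmD1, stood at 23.4, 8.98, 19.2 and 10.2 FPKM, with a ratio of 0.384 (0.351 to 0.42). SNRPB, which encodes the SmB and SmB′ forms and is the strongest of the ring genes per length, had 257, 116, 249 and 133 FPKM, and a ratio of 0.453 (0.431 to 0.476). SNRPF, for SmF, had 22.2, 10.3, 20.2 and 12.2 FPKM, also 2-fold lower in SD70. In each of these genes both SD70 libraries were below both others.

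SNRPD3 and SNRPD2 were the members of the ring under 2-fold. SNRPD3, for SmD3, stood at 40.5, 20.5, 37.3 and 23.2 FPKM, a log2 fold of -0.95 in SD70. SNRPD2, for SmD2, stood at 104, 72.3, 108 and 80.1 FPKM and was the highest by fold of the Sm genes, with a ratio of 0.693 (0.652 to 0.736) and -0.48 ± 0.11 in the fit (SE, limma adjusted p = 0.0364). Proteins that share 1 ring thus had transcripts whose SD70 ratio ran from 0.227 to 0.693, intervals that do not overlap. Levels per length use the union of all annotated exons, which for SNRPD1 is 4909 bases, so that a short message in a long annotated gene reads low against its neighbours.

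SNRPG is also a gene whose reads are hard to place, because processed copies of its message sit elsewhere in the genome. The coding sequence of SNRPG and the aligned stretch of its most strongly measured copies are shown because they are nearly the same letters. SNRPGP10 lies on chromosome 1 (205351247 to 205351471) and SNRPGP15 on chromosome 19 (14489388 to 14489609), both on the plus strand, and capitals mark bases that differ from SNRPG, which is in lower case throughout. The sequences are read from GRCh38 with GENCODE 29:
SNRPG: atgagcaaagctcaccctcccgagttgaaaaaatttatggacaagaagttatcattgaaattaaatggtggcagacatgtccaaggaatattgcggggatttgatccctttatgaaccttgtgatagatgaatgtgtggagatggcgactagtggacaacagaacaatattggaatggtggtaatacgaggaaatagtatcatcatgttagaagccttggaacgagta
SNRPGP10: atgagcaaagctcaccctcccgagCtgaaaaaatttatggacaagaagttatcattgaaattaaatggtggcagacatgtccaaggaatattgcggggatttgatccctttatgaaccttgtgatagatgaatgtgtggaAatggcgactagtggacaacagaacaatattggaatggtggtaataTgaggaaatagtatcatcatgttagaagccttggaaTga
SNRPGP15: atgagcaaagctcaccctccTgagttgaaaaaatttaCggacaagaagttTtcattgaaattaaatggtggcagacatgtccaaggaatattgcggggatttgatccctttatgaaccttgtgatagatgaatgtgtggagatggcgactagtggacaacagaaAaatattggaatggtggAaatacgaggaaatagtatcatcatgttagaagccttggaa

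SNRPGP10 differs from SNRPG at 4 of 225 bases and SNRPGP15 at 5 of 222, and the longest stretches without a difference are 115 and 113 bases. A read inside such a stretch cannot be placed by its letters alone. SNRPG had 1036, 241, 763 and 226 reads in the same order, and its 20 annotated copies together had 96, 88, 134 and 126. The copies held 8.48% of the joint reads in DMSO, 26.7% in SD70, 14.9% in MI-503 and 35.8% in the combination. With the reads of gene and copies added up, the log2 fold of SNRPG in SD70 was -1.73 in place of -2.02, still the lowest of the 51. SNRPGP10 had 7.94, 8.04, 13.7 and 15.5 FPKM and SNRPGP15 13.4, 8.73, 18.8 and 7.57, so the copies did not follow a common pattern.

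The U1 snRNP proteins were lower by a median of -0.47, and 1 of 3 fell. SNRPC, for the U1-C protein, which helps U1 to recognise the start of the intron, had 90.5, 42.2, 78.5 and 47.7 FPKM in the 4 libraries. Its SD70 ratio was 0.466 (0.429 to 0.507) and it fell by 0.89 ± 0.14 on the log2 scale (SE, limma adjusted p = 0.0228). SNRPA, for the U1-A protein, which binds a stem-loop of the U1 RNA, had 57.0, 42.1, 56.2 and 44.6 FPKM, a ratio of 0.739 (0.691 to 0.79), and did not pass (limma adjusted p = 0.07). SNRNP70, for U1-70K, the protein through which SR proteins reach U1, had 79.2, 56.8, 70.1 and 58.1 FPKM, a ratio of 0.717 (0.689 to 0.747), and did not pass either (limma adjusted p = 0.0789). The intervals place SNRPC below the other U1 genes in this pair of libraries.

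The U2 snRNP genes were the least lowered role, with a median of -0.36, and 3 of 8 fell. SF3B3, a scaffold of the SF3B complex, was the lowest, at 46.5, 21.6, 42.1 and 26.2 FPKM, with a ratio of 0.464 (0.447 to 0.482) and -0.87 ± 0.15 in the fit (SE, limma adjusted p = 0.0252). SNRPA1, for the U2-A′ protein, had 20.2, 10.1, 15.2 and 11.1 FPKM and a ratio of 0.50 (0.451 to 0.553), and fell (limma adjusted p = 0.0417). SF3A3 fell as well, from 39.4 to 22.1 FPKM between DMSO and SD70, with 36.2 in MI-503 and 25.9 in the combination.

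SF3B1, the largest SF3B subunit, which holds the branch point, stayed within a narrow range. It had 53.7, 50.95, 50.8 and 50.6 FPKM, a ratio of 0.95 (0.919 to 0.981) in SD70, and did not pass (limma adjusted p = 0.816). SF3A2 was similar, with 41.3, 38.9, 40.2 and 36.6 FPKM and a ratio of 0.941 (0.883 to 1.003). SNRPB2, for the U2-B″ protein, SF3A1 and SF3B2 lay between, at ratios of 0.777, 0.818 and 0.767, and did not pass. SF3B1 and SF3B3, subunits of the same complex, had SD70 ratios whose intervals lie far apart.

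U2AF binds the end of the intron as a pair of proteins. U2AF2, the large subunit, which reads the polypyrimidine tract, had 105, 51.2, 91.4 and 57.2 FPKM, a ratio of 0.488 (0.468 to 0.509), and fell (-0.84 ± 0.13 SE, limma adjusted p = 0.0229). U2AF1, the small subunit, which reads the terminal AG, was listed at only 1.70, 0.942, 1.11 and 1.47 FPKM, the weakest level of the 51. Its SD70 ratio to DMSO was 0.553 (0.453 to 0.673), while the ratio of the combination to MI-503 was 1.32 (1.09 to 1.6), the opposite direction; it did not pass the fit (limma adjusted p = 0.742).

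U2AF1 (ENSG00000160201, chromosome 21, 43092956 to 43107587) has a second annotated copy on the same chromosome, U2AF1L5 (ENSG00000275895, 6484623 to 6499261), whose coding sequence is 100% identical. U2AF1 had 286, 162, 193 and 252 reads and U2AF1L5 had 46, 37, 214 and 215. U2AF1L5 was thus high in both libraries with MI-503 and low in both without it. With all copies added, the log2 fold of U2AF1 was -0.45 in SD70, 0.17 in MI-503 and 0.33 in the combination, against -0.48, -0.36 and -0.13 for the gene alone. The split between identical genes is uncertain, so the direction for U2AF1 in MI-503 and the combination turns with how they are counted. How reads that match both genes were counted is not given, so the listed level of U2AF1 is uncertain as well. That level is also per 11112 bases of annotated exon, for a coding length of 720 bases.

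**Figure D2:**
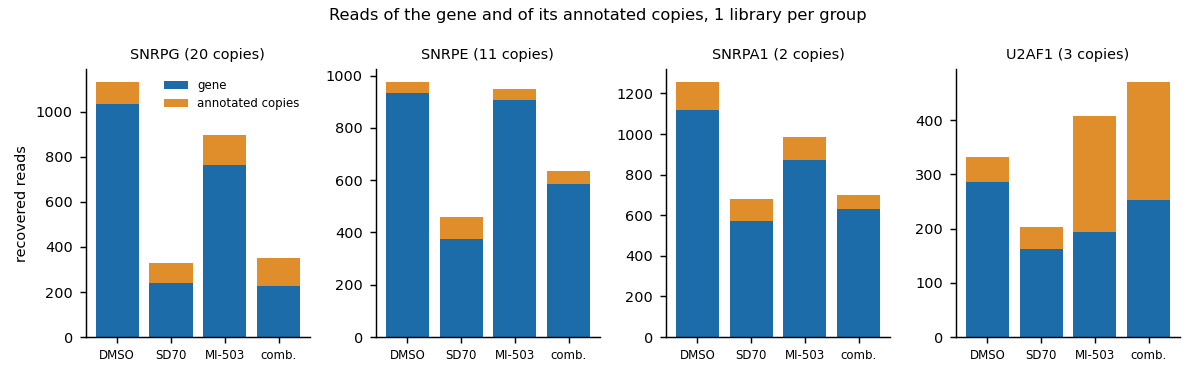
Recovered reads of SNRPG, SNRPE, SNRPA1 and U2AF1 (blue) and of their annotated copies added on top (orange) in the 4 libraries; each panel has its own axis from 0. The copies of U2AF1 went from 13.9% of the joint reads in DMSO to 52.6% in MI-503, whereas the copies of SNRPA1 stayed between 10.4% and 15.8%.

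Copies mattered for few other genes. GENCODE 29 holds 215 copies of 33 of the 51 genes by sequence or name, and 18 genes have none; 126 copies had 0 reads in all libraries and 20 had a mean of at least 1 FPKM. Only SNRPG, SNRPE, SNRPA1 and U2AF1 had copies with over 5% of the joint reads in any library. For SNRPE the share was 4.10%, 18.7%, 4.53% and 8.02%, and most of it was SNRPEP4, at 9.25, 19.0, 9.19 and 11.4 FPKM. HNRNPA1 has the most copies, 77, of which HNRNPA1L2, HNRNPA1L3, HNRNPA1P7, HNRNPA1P10, HNRNPA1P16, HNRNPA1P49 and HNRNPA1P59 passed 1 FPKM, yet its copies in DMSO held 787 reads beside 29134 of the gene. The others that passed were HNRNPA3P6, HNRNPCP1, HNRNPCP2, HNRNPCP7, HNRNPKP4, HNRNPLP2, SNRPA1P1, SNRPGP2, SNRPGP14 and SRSF9P1. With copies added the same number of genes, 15, was 2-fold lower in SD70, and the largest shift of any log2 fold in that comparison was 0.28, in SNRPG.

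The LSm ring, which stabilises the U6 RNA, had a median of -0.66; none of its genes was 2-fold lower (0 of 7) and 4 of 7 fell. LSM3 had 12.3, 6.51, 10.7 and 6.93 FPKM in the 4 libraries, with a ratio of 0.529 (0.466 to 0.6), and fell (-0.70 ± 0.13 SE, limma adjusted p = 0.0277). LSM5 had 10.0, 5.53, 8.41 and 5.06 FPKM, a ratio of 0.551 (0.487 to 0.624), and fell (-0.70 ± 0.12 SE, limma adjusted p = 0.0255). LSM4 and LSM7 also fell, at ratios of 0.625 and 0.622.

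LSM2 was the member that SD70 alone left at its DMSO level. It had 63.5, 63.4, 64.1 and 56.0 FPKM, a ratio of 0.998 (0.915 to 1.09). In the combination it was the only gene of the 51 below SD70 by its counting interval, with a ratio of 0.883 (0.808 to 0.965). LSM8, which sets the nuclear ring apart from the cytoplasmic decay ring, had 8.94, 7.63, 8.13 and 7.33 FPKM, a ratio of 0.853 (0.772 to 0.943). LSM6, with 4.61, 2.95, 4.24 and 3.32 FPKM, had a ratio of 0.639 (0.527 to 0.774); neither LSM8 nor LSM6 passed.

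PRPF8, the large U5 protein at the catalytic centre, had 102, 76.4, 96.2 and 78.8 FPKM, with a ratio of 0.748 (0.731 to 0.765), and did not pass (limma adjusted p = 0.0744). PRPF19, the ubiquitin ligase that gives the Prp19 complex its name, had 84.9, 49.2, 83.0 and 55.6 FPKM, with a ratio of 0.58 (0.549 to 0.612), and fell (-0.67 ± 0.12 SE, limma adjusted p = 0.0256). Both were lower in each library with SD70 than in each without it.

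**Figure D3:**
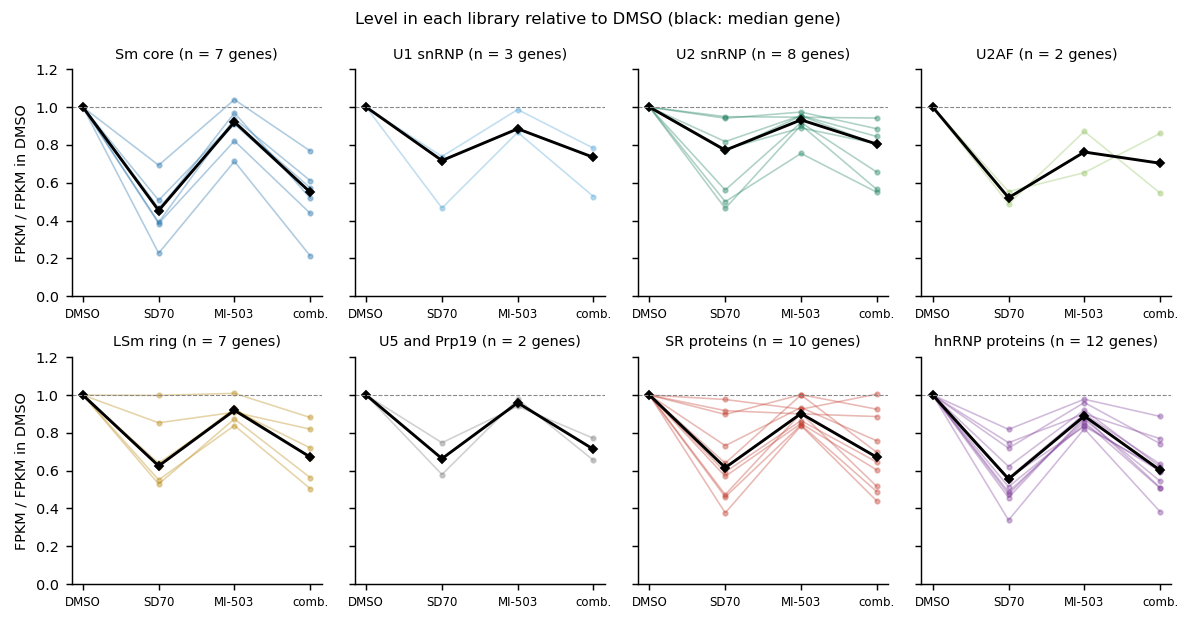
FPKM in each library divided by the FPKM of the same gene in DMSO, by role; thin lines are genes and the black line joins the medians. In each of the 8 panels the median dips in SD70 and in the combination and lies nearer to 1 in MI-503, and the Sm panel reaches the lowest level.

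The SR proteins spread widely: the median was -0.66, 3 of 10 were 2-fold lower and 6 fell. SRSF1 (ENSG00000136450, chromosome 17, 58003360 to 58007346), the founding SR protein, which promotes use of nearby splice sites, had 54.7, 20.6, 45.9 and 24.1 FPKM. Its SD70 ratio was 0.377 (0.351 to 0.404) and its change in the fit -1.13 ± 0.15 (SE, limma adjusted p = 0.0224). SRSF2, which binds exonic enhancers and is recurrently mutated in myeloid neoplasms, had 95.4, 44.0, 80.4 and 46.7 FPKM, a ratio of 0.461 (0.437 to 0.486), and fell (limma adjusted p = 0.0224). SRSF7, which also takes part in mRNA export, had 59.1, 28.0, 53.4 and 30.5 FPKM, a ratio of 0.473 (0.447 to 0.501), and fell with the same adjusted p in limma. In these 3 genes the SD70 and combination libraries lay together, far below the other pair.

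SRSF3, SRSF9 and SRSF10 fell by less. SRSF3, the smallest SR protein and an export adaptor, had 78.4, 44.6, 66.6 and 47.3 FPKM. SRSF10, which is active as a splicing repressor when dephosphorylated, had 22.7, 13.4, 19.6 and 14.6 FPKM, and SRSF9 had 26.9, 17.2, 26.9 and 18.7. SRSF6, at 82.0, 60.1, 76.6 and 62.2 FPKM, was lower in both SD70 libraries and did not pass (limma adjusted p = 0.0708).

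SRSF4, SRSF5 and SRSF11 made up the other end. SRSF11 (chromosome 1, 70205682 to 70253052), an SR-like protein, had 34.0, 33.2, 31.5 and 34.2 FPKM, and a ratio of 0.977 (0.936 to 1.02) in SD70. SRSF5 had 52.4, 48.1, 47.2 and 46.4 FPKM, with a ratio of 0.917 (0.878 to 0.958), and SRSF4 had 14.5, 13.0, 14.5 and 13.4, with 0.897 (0.841 to 0.957). None of these passed the fit (limma adjusted p = 0.821, 0.67 and 0.466). The ratios of SRSF1 and SRSF11, genes of 1 protein family, lay 0.377 against 0.977.

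Among the hnRNP proteins the median was -0.84, 4 of 12 were 2-fold lower and 10 fell. HNRNPR (ENSG00000125944, chromosome 1, 23303771 to 23344336), an RNA-binding protein with several recognition motifs, was the lowest, at 33.0, 11.2, 27.1 and 12.6 FPKM. Its ratio was 0.338 (0.319 to 0.359) and its change -1.26 ± 0.15 (SE, limma adjusted p = 0.0224). HNRNPA2B1, which binds and sorts RNAs through a UAG-containing motif, had 181, 83.0, 160 and 92.6 FPKM, with a ratio of 0.457 (0.447 to 0.467). HNRNPA3, its close relative, had 117, 55.6, 102 and 63.8 FPKM, with 0.475 (0.46 to 0.492). HNRNPM had 111, 54.1, 95.3 and 56.3 FPKM, with 0.487 (0.471 to 0.505). HNRNPA2B1, HNRNPA3 and HNRNPM fell by 0.95, 0.86 and 0.89 on the log2 scale (limma adjusted p = 0.0224, 0.0229 and 0.0224).

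HNRNPU, a nuclear scaffold protein, HNRNPF, which binds G-rich tracts, HNRNPK, which binds C-rich tracts, HNRNPD, known as AUF1, and HNRNPL, which binds CA repeats, fell with ratios from 0.514 (HNRNPU) to 0.622 (HNRNPL). HNRNPK, for example, had 194, 109, 162 and 118 FPKM. HNRNPC, which binds uridine tracts and keeps cryptic exons out, had 105, 75.5, 100.9 and 78.0 FPKM and fell narrowly (-0.42 ± 0.11 SE, limma adjusted p = 0.0484).

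HNRNPA1 is the strongest of the 51 genes per length and was the least lowered hnRNP gene. It had 379, 310, 370 and 336 FPKM, a ratio of 0.818 (0.805 to 0.832), and did not pass (limma adjusted p = 0.132). HNRNPH1, which binds G-rich tracts as HNRNPF does, had 102, 76.5, 92.1 and 78.7 FPKM, a ratio of 0.748 (0.73 to 0.767), and did not pass (limma adjusted p = 0.0983). HNRNPA1 and its relatives HNRNPA2B1 and HNRNPA3 thus had SD70 ratios with intervals far apart.

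MI-503 alone moved these genes little. The median log2 fold was -0.14, against -0.03 over all genes, and the range ran from -0.47 in SNRPG to 0.06 in SNRPD2. By log2 fold of FPKM + 1, none of the 51 was 1.5-fold lower (0 of 51), where 2.55% of all genes were. The plain FPKM ratio of U2AF1, 0.653, was past 1.5-fold, but its log2 fold of FPKM + 1 was -0.36. Below DMSO were 47 of the 51, where 55.0% of all genes were, and the counting interval of the ratio lay wholly below 1 for 39 (25.1% of all genes) and wholly above 1 for 0 (18.6%). The lowest ratios in MI-503 were those of U2AF1 (0.653, 0.541 to 0.787), SNRPG (0.713, 0.648 to 0.784) and SNRPA1 (0.755, 0.69 to 0.826), which are among the genes with many reads in copies. With copies added U2AF1 was above DMSO in MI-503, by 0.17 on the log2 scale, and SNRPG and SNRPA1 were at -0.37 and -0.38. The MI-503 term of the limma fit sets both libraries with the agent against both without it, so it is not MI-503 alone. It averages MI-503 against DMSO and the combination against SD70, whose medians over the 51 were -0.14 and 0.11, of opposite sign. By this term 0 of the 51 fell or rose, as was the case for all genes (0.00% falling and 0.00% rising). An unadjusted p under 0.05 in limma was found for 0 of the 51 and for 401 of all genes (3.26%). Voom on the reads called 0 of the 51 and 8 of all genes, 5 higher and 3 lower.

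In the combination the genes were low again. Against DMSO the median was -0.60 (all genes -0.06), 50 of 51 were below it (55.5% of all genes), 5 were 2-fold lower (3.76% of all genes) and 28 were 1.5-fold lower (14.9%). The 5 were SNRPG, HNRNPR, SRSF1, SNRPD1 and SRSF2, with ratios of 0.213, 0.383, 0.44, 0.438 and 0.489. This comparison and that of SD70 against DMSO share the DMSO library. SRSF11 was the gene not below DMSO, with a ratio of 1.01 (0.964 to 1.05); with copies added U2AF1 was above it as well, at a log2 fold of 0.33.

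The combination against MI-503 is the pair that shares no library with SD70 against DMSO, and it asks what SD70 did when MI-503 was present. The median was -0.47 (all genes -0.04) and 49 of 51 were below MI-503 (54.3% of all genes; 47 of 51 with either other scaling, where SF3B1 and SRSF5 were not below it). SNRPG and HNRNPR were 2-fold lower, 2 of 51 against 1.64% of all genes, and 17 were 1.5-fold lower, against 9.21%. The counting interval lay wholly below 1 for 47, as for 35.1% of all genes. HNRNPR had a ratio of 0.466 (0.44 to 0.494) and SRSF1 of 0.525 (0.49 to 0.563). U2AF1 and SRSF11 were the exceptions in direction, SRSF11 with a ratio of 1.09 (1.04 to 1.13). The Sm core (-0.68) and hnRNP proteins (-0.53) had the lowest medians here as without MI-503, and U2 (-0.21) was again nearest to 0. The median of the 2 U2AF genes went from -0.75 without MI-503 to -0.22 with it. U2AF2 went from -1.02 to -0.67, and U2AF1, whose reads cannot be separated from those of U2AF1L5 with certainty, from -0.48 to 0.22. At least 1.5-fold lower in both pairs were 17 of the 51, against 7.43% of all genes: 6 of the Sm core, SNRPC and 10 others.

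**Figure D4:**
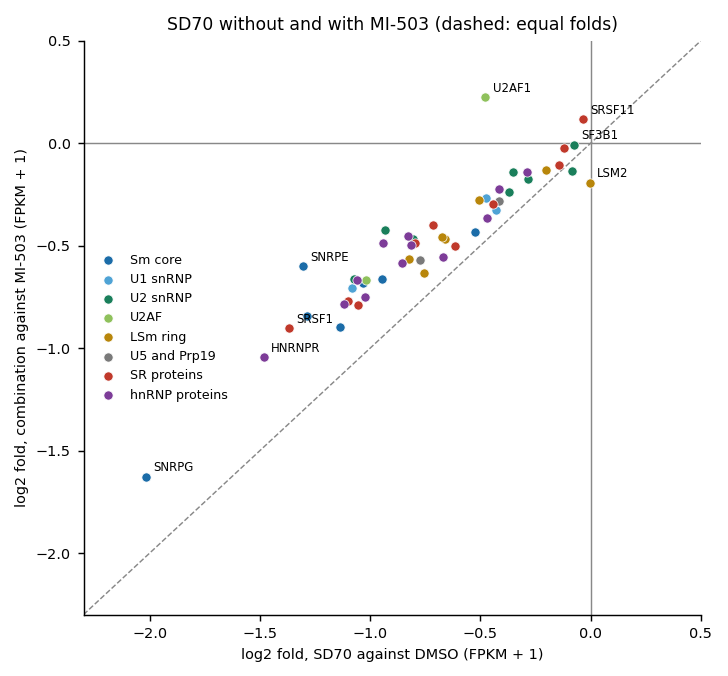
Log2 fold of SD70 against DMSO (x) and of the combination against MI-503 (y) for the 51 genes, coloured by role; the pairs share no library, and the dashed line marks equal folds. Most points lie above the line, SNRPG is lowest on both axes, and U2AF1 and SRSF11 are above 0 on the y axis.

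The log2 folds of SD70 were mostly less negative when MI-503 was present. The departure from additivity, log2 of the combination minus SD70 minus MI-503 plus DMSO, was above 0 for 49 of the 51, where 55.0% of all genes were, with a median of 0.24 against 0.04 (49 and 48 of the 51 with the same FPKM and the same read total). Among genes whose mean reached 20 FPKM, it was above 0 for 39 of 41 listed genes, against 63.3% of 2160, with medians of 0.22 and 0.09. It was largest for U2AF1 and SNRPE (0.70 each), then SNRPA1 (0.51), SRSF1 (0.46) and HNRNPU (0.45), and below 0 for LSM2 (-0.19) and SF3A2 (-0.05). With 1 library per group this quantity has no error estimate and was not tested. Directly, the combination stood above SD70 in 43 genes and below it in 8 (45.7% of all genes were below). The median was 0.11 (all genes 0.01), and with the same FPKM total 16 were below SD70. Among genes whose mean reached 20 FPKM, 6 of 41 listed genes were below SD70, against 31.9% of 2160, with medians of 0.11 and 0.06. By log2 fold of FPKM + 1, 1 of the 51 (SNRPE) was 1.5-fold higher, against 2.53% of all genes. With copies added it was U2AF1 (0.78 on the log2 scale) in place of SNRPE (0.45). The plain FPKM ratio of U2AF1 without copies, 1.56 (1.27 to 1.91), was past 1.5-fold as well. The interval lay wholly above 1 for 27, as for 19.3% of all genes, and wholly below 1 for LSM2, as for 14.1%. In none of these genes was the combination 2-fold away from SD70 (0 higher and 0 lower), and few genes at all were (0.846% higher and 0.952% lower).

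The fold did not follow strength or size. Across the 51 genes the log2 fold in SD70 had a Spearman rho of -0.02 with the mean FPKM and of 0.20 with coding length. The mean FPKM ran from 1.31 in U2AF1, whose level is uncertain, to 349 in HNRNPA1. Coding length ran from 228 bases in SNRPG to 7005 in PRPF8. These are descriptions over genes of the same libraries. The genes lie on 20 chromosomes, 9 of them on chromosome 19, and have no common location.

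Promoters were searched because the genes moved together. RefSeq promoter windows, 250 bases before to 50 after a start, were matched for 46 genes, and 27 of these had a window within 100 bases of the GENCODE start. The motif CCGGAAG (an ETS core), on either strand, was in 7 of the 27 (25.9%), against 12.9% of 12196 genes with such a window and 22.8% of the 4949 protein-coding ones above the same minimum. CCAAT was in 33.3% (37.5% and 39.3%), TATAAA in 11.1% (11.1% and 5.68%) and CACGTG, the E-box bound by MYC, in 3.70% (8.43% and 11.1%), SF3B1 being the gene with it. No motif holds another, and a match is a description of letters, not of a bound site. Motifs and folds were not tested together, and genes went either way. SNRPC fell and held CCGGAAG, while SRSF1 and SRSF7 fell and their windows held none of these motifs. SRSF4 and SF3A1 held CCGGAAG and did not pass the fit.

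Windows of 3 genes are shown as examples only, 2 that fell strongly and 1 that SD70 left unmoved, with matches to the 4 motifs in capitals. They are on GRCh38, from RefSeq: SNRPB at chr20:2470740-2471039 on the minus strand, HNRNPR at chr1:23344235-23344534 on the minus strand and SRSF11 at chr1:70205446-70205745 on the plus strand. SNRPB holds CCGGAAG, HNRNPR holds ATTGG, the reverse complement of CCAAT, at 2 places, and SRSF11 holds none of the 4:
SNRPB: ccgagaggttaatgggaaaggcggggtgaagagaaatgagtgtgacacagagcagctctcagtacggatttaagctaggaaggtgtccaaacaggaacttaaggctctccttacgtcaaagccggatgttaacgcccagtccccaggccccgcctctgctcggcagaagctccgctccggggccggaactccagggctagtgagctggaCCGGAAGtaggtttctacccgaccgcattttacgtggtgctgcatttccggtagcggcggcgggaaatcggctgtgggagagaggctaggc
HNRNPR: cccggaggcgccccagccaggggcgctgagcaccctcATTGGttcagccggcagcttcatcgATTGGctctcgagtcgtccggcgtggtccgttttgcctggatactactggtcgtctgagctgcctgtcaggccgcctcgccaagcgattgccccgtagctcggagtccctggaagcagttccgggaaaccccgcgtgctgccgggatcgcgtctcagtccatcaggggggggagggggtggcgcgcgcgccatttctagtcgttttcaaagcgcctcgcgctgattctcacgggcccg
SRSF11: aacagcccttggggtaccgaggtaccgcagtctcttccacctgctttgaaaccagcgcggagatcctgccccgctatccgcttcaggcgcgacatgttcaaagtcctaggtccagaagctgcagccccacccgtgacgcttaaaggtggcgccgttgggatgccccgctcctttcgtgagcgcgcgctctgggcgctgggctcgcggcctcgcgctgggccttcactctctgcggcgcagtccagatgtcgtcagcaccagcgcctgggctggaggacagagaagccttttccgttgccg

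The wider splicing machinery was compared through 10 lists that hold 158 other genes, of which 157 reached a mean of 1 FPKM. Their median in SD70 was -0.45, and 48 fell and 2 rose, beside the 14.7% and 7.86% of all genes given above. At least 2-fold lower were 11 of the 157, near the 6.37% of all genes, and 0 were 2-fold higher, where 6.01% of all genes were. Genes for building snRNPs had a median of -0.69 and 10 of 20 fell. The lowest was GEMIN5, which recognises small nuclear RNAs for the SMN complex, at 19.6, 6.38, 15.4 and 7.24 FPKM (limma adjusted p = 0.0224). GEMIN7 was the highest of that list and differed little, with 9.61 FPKM in DMSO and 10.2 in SD70. SMN1, which has the near-identical copy SMN2, went to 24.3 FPKM in MI-503 from 6.22 in DMSO. The other library with MI-503 did not show this: in the combination no gene of that list had a log2 fold against DMSO above 0.45. The reads of SMN1 cannot be separated from those of SMN2 with certainty.

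Other core parts differed from list to list. Of 17 further tri-snRNP genes 6 fell and 0 rose, with SNU13, which binds the U4 RNA, the lowest (48.0 to 22.7 FPKM from DMSO to SD70) and SART1 the highest (23.8 to 23.0). Of 16 further U1 and U2 genes 9 fell and 0 rose, from DHX15, a helicase that takes spliceosomes apart (42.6 to 19.5), to LUC7L3 (24.0 to 25.8). Of 24 Prp19-associated and catalytic genes 2 fell and 1 rose, a smaller share falling than the 14.7% of all genes; PPIL1 went from 33.1 to 13.5 and SYF2 rose from 9.37 to 19.6 (limma adjusted p = 0.0295). Of 20 exon junction and export genes 7 fell and 0 rose, with ALYREF, an export adaptor, at 102 and 39.0, and NXF1, the export receptor, at 19.8 and 24.1. Of 8 other LSm genes 1 fell and 0 rose, also under that share, and LSM1 (19.5 to 11.6) and LSM14B (12.8 to 12.7) were its ends.

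Regulators were mixed. Of 23 other hnRNP genes 9 fell and 0 rose. HNRNPAB was the lowest (188 to 65.1 FPKM, limma adjusted p = 0.0224) and HNRNPLL, a splicing regulator of lymphocytes, the highest (11.3 to 21.3, limma adjusted p = 0.0681). Of 10 other SR-related genes 1 fell, a smaller share than the 14.7% of all genes. It was TRA2B (33.8 to 15.8), and SREK1 was the highest (10.3 to 9.73). Of 10 kinases and carriers of SR proteins 2 fell, near the share of all genes, and 0 rose. SRPK1 was at 37.4 and 19.5 FPKM and CLK4 at 4.46 and 7.68 (limma adjusted p = 0.0585). The 9 genes of the minor spliceosome, which removes a rare class of introns, had a median of 0.16 in SD70 against DMSO. In the combination their median was -0.21 against DMSO and -0.05 against MI-503. Beside 14.7% and 7.86% of all genes, 1 of 9 fell, SNRNP25 (19.7 to 10.7), and 1 rose, RNPC3 (3.89 to 6.49, limma adjusted p = 0.0402).

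**Figure D5:**
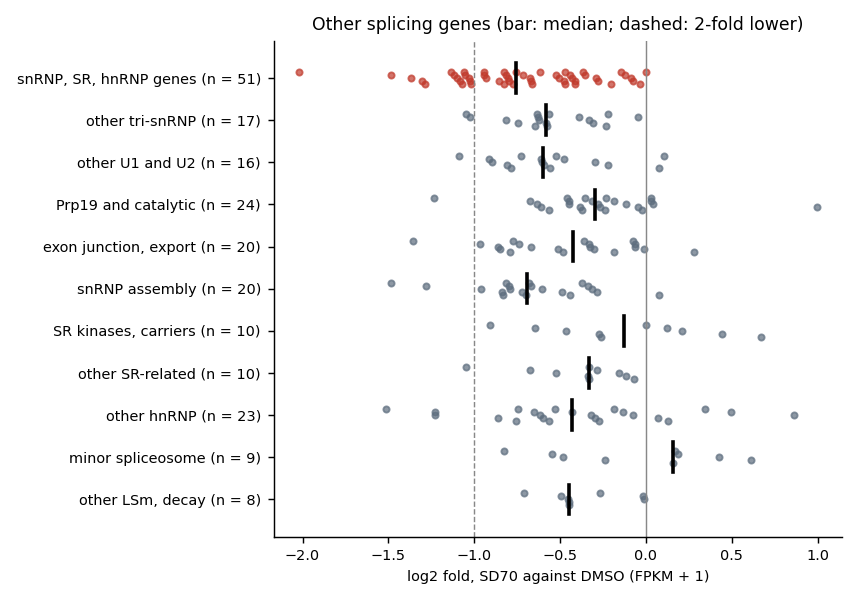
Log2 fold of SD70 against DMSO for the 51 genes (red) and for 10 lists of other splicing genes (grey), 1 point per gene with the median as a black bar. The 51 genes have a median of -0.76, snRNP assembly genes -0.69, and the minor spliceosome 0.16, the only list with a median above 0.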

How the data were processed

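The authors deposited 1 table per library with a value per Ensembl gene, read here as FPKM from the values, since the header names no unit. BWA, Bowtie and hg38 are named per the submitters' processing notes; versions, the counter, its strand setting and the annotation are not given in the sources used here. Multiplying FPKM by GENCODE 29 union-exon length gave whole reads, within 0.01, for 100% of values, and the scaling matched median-of-ratios size factors (difference 0.0%). Without strand, antisense reads cannot be told apart. The name table matched 58207 of 58735 identifiers.

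Folds used log2(FPKM + 1), which understates changes of low genes, over the 12296 genes whose mean reached 1 FPKM. With 1 library per group, only limma 3.58.1 (R 4.3.3), with a mean-variance trend and Benjamini-Hochberg adjustment over those genes, 2-sided, gave p-values, on 1 residual degree of freedom. Tested on simulated data for the SD70 term with 12296 genes, it recovered 72% of 2-fold and 93% of 4-fold changes (100 genes each) with 74 false calls, 8 of them in genes of at least 300 bases. The real fit's error is the departure itself, so these rates need not hold. Copies were found with BLAST 2.17.0 (at least 90% identity over at least 50% of the coding sequence) or by name, 92 of them by name only. Named genes are the 51, plus the highest and lowest SD70 fold of each other list and copies at that minimum; the departures, the lowest MI-503 ratios and SMN1 were picked after their values were seen. The members and lists were chosen with earlier results of these data known.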

Additional observations from a re-analysis of the deposited data

Results flagged for a closer look

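U2AF1 moved in opposite directions with SD70 in the 2 pairs: it was lower in SD70 than in DMSO (ratio 0.553, 0.453 to 0.673) and higher in the combination than in MI-503 (ratio 1.32, 1.09 to 1.6). The log2 folds differ by 0.70. With 1 library per group this difference was not tested, and the identical copy U2AF1L5 took 214 and 215 reads in the libraries with MI-503 and 46 and 37 in the others.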

How the results depend on the processing

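No value past a threshold reversed its direction. With a pseudocount of 5 the median log2 fold of SD70 against DMSO was -0.61, 3 genes were 2-fold lower in the combination than in DMSO and 1 than in MI-503. Scaled to the same FPKM total, 7 genes were 2-fold lower in SD70 (4.72% of all genes) and 1 in the combination against MI-503 (1.26%); scaled to the same read total these were 7 and 1 (4.62% and 1.34%), with a median of -0.65. The single gene against MI-503 is near the share of all genes. These scalings shift the median of all genes from -0.07 to 0.02 and 0.03. At 1.5-fold the counts were 31 in SD70, 28 in the combination against DMSO and 17 against MI-503, and 1 was higher in the combination than in SD70. The 33 genes that fell in the limma fit became 0 without the trend (smallest adjusted p 0.0514) and 0 without the filter (0.277), where 0 of all genes fell too. They were 26 with the same FPKM total (10.2% of all genes fell), 31 and 32 with pseudocounts of 0.1 and 5 (13.4% and 14.0%), and 38 with voom on the reads (23.0%), against 14.7% as reported; the cause was not tested. A minimum mean of 20 FPKM was chosen after seeing the data. Of the single-gene values recomputed, 692 kept their side, 97 lost the threshold, 5 gained it and 21 moved. No paired analysis was possible because each group is 1 library, and for the same reason no library could be left out. The lack of replicates, the reads that near-identical copies share and the unnamed counter limit these results; doses and cultures are not known here.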
